A study of Mus musculus with 2 samples.

Results

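The 6 actin genes of the mouse (Acta1, Actc1, Acta2, Actg2, Actb and Actg1) were followed across the cells of the pressure-loaded heart. They were taken by their symbols from the 32589 genes of the deposited count files, and all 6 were found. The study narrowed the aorta of wild-type and p53 knockout mice by transverse aortic constriction (TAC), an operation that makes the left ventricle pump against high pressure. After 6 weeks the hypertrophied left ventricles were collected, and 1 single-cell RNA library was made per genotype from 3 hearts mixed. Both groups carried the TAC surgery, and no unoperated heart is analysed here. The labels do not give the strain, age, sex or kind of knockout allele. The question set by the design is how gene expression in the hypertrophied heart differs with p53, the tumour suppressor encoded by Trp53.

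Actins are the proteins that assemble into the thin filaments of muscle and into the cytoskeleton of every cell. Actc1 encodes cardiac alpha-actin, the main actin of the adult heart muscle cell, and Acta1 encodes skeletal alpha-actin, which the ventricle makes before birth and again under pressure load. Acta2 encodes the alpha-actin of vascular smooth muscle, which fibroblasts also make when they become contractile myofibroblasts, and Actg2 encodes the gamma-actin of visceral smooth muscle. Actb and Actg1 encode the cytoplasmic beta- and gamma-actins. Several actin genes are driven by serum response factor (SRF), which binds a sequence called the CArG box, together with cofactors (myocardin and the MRTF proteins) that respond to the pool of unpolymerised actin.

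All 6 genes lie on the minus strand of build mm10 in the GENCODE vM21 annotation. Acta1 (ENSMUSG00000031972) spans chromosome 8 from 123891769 to 123894751, and Actc1 (ENSMUSG00000068614) spans chromosome 2 from 114047282 to 114053548. Acta2 (ENSMUSG00000035783) spans chromosome 19 from 34241090 to 34255590, and Actg2 (ENSMUSG00000059430) spans chromosome 6 from 83512905 to 83536265. Actb (ENSMUSG00000029580) spans chromosome 5 from 142903115 to 142906754, and Actg1 (ENSMUSG00000062825) spans chromosome 11 from 120345690 to 120348542.

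RefSeq promoter windows on GRCm38 (the assembly of mm10) were matched for 4 of the 6 genes, Acta1, Actc1, Acta2 and Actg1. The upstream sequences of both sarcomeric genes are shown because the cardiomyocyte results below are mostly about these genes. No expression result below uses the sequences. Each runs from 220 to 27 bases before the RefSeq start and holds no base of a GENCODE exon; that of Acta1 lies before the annotated gene and that of Actc1 in an intron of a transcript that starts earlier. The sequences are read 5′ to 3′ on the minus strand, with 10-base CArG boxes that have at most 1 mismatch in capitals.
Acta1, chr8:123894802-123894995: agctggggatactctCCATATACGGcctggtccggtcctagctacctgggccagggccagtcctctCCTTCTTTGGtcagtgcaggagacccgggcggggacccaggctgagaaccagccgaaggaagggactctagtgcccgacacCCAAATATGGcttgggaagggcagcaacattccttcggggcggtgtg
Actc1, chr2:114052902-114053095: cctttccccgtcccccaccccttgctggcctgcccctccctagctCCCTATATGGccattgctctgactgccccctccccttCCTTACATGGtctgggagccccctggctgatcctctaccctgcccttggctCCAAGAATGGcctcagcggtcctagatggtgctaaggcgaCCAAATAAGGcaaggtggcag

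The CArG search used the published consensus of SRF, which is its own reverse complement, so both strands are covered by 1 search and no box overlapped another. The Acta1 window held 3 boxes, of which the one 73 bases before the start matched without a mismatch, and the boxes at 205 and 154 bases had 1 mismatch. The Actc1 window held 4 boxes, with an exact match 47 bases before the start and boxes with 1 mismatch at 175, 138 and 87 bases. The Acta2 window held 2 boxes with 1 mismatch, 84 and 34 bases before the RefSeq start, and both lie in an exon of a GENCODE transcript that starts earlier. The Actg1 window held 1 exact box, 90 bases before the start. These 3 sites are shown for comparison with the sarcomeric pair, each with 10 bases on either side.
Acta2 distal site, chr19:34255438-34255467: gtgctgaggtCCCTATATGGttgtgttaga
Acta2 proximal site, chr19:34255388-34255417: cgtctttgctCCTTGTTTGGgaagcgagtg
Actg1 site, chr11:120348566-120348595: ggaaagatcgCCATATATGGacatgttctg

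Over 32841 RefSeq promoter windows of 250 upstream bases, 1.47% held an exact box, 18.6% held at least 1 box with at most 1 mismatch, 2.96% held at least 2 and 0.365% held at least 3. A match describes the letters of the window and says nothing of whether SRF binds there in these cells.

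Below, the WT-labelled library is the one whose label says wild-type, and the p53KO-labelled library the one whose label says p53 knockout. The first held 18897913 unique molecular identifiers (UMIs) in 16060 barcodes and the second 20918824 in 10118. Filters left 14764 and 9298 cells with 937 and 1567 UMIs in the median cell. The libraries shared 105 barcodes. Trp53 was not lower in the p53KO-labelled library, with 55.0 against 38.7 counts per 1000000 nuclear-encoded UMIs (CPM), so the libraries are named by their labels only. Xist, an RNA made by female cells, had 2.37 and 929 CPM, and 4 Y-linked genes summed had 541 and 7.34 CPM, so that sex and genotype cannot be told apart. The labels call the cells cardiomyocytes, whereas the clusters were named "X-like" for 12 classes by their marker genes, and 4910 and 860 cells were cardiomyocyte-like. With 1 library per group there is no spread between animals and no test. Each interval is an exact 95% interval that covers counting error only, and each log2 ratio is of the p53KO-labelled library over the WT-labelled library.

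Each actin had its own distribution over the heart's cells, and the libraries differed in most of them. Over all kept cells Acta1 had 43.9 CPM in the WT-labelled library and 239 CPM in the other, and Acta2 had 24.2 and 49.9 CPM. Actb had 270 and 646 CPM and Actg1 379 and 618 CPM, whereas Actc1 had 1150 and 688 CPM. Actg2 was scarce, with 14 and 125 UMIs. These totals also carry the make-up of each library, since cardiomyocyte-like cells were 33.3% of kept cells in the WT-labelled library and 9.25% in the other.

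Most of the sarcomeric actin RNA lay in cardiomyocyte-like cells in both libraries. They held 59.5% and 53.9% of the Acta1 UMIs and 63.3% and 59.1% of the Actc1 UMIs of the WT-labelled library and of the other. Smooth muscle-like cells, which were 0.291% and 1.06% of cells, held 48.7% and 37.8% of the Acta2 UMIs, and 4 of 14 and 75 of 125 UMIs of Actg2. Fibroblast-like cells held 7.29% and 18.7% of the Acta2 UMIs, and endocardial-like cells held 7.79% and 23.1%. Cardiomyocyte-like cells also held 58.3% of the Actg1 UMIs in the WT-labelled library and 17.4% in the other.

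**Figure D1:**
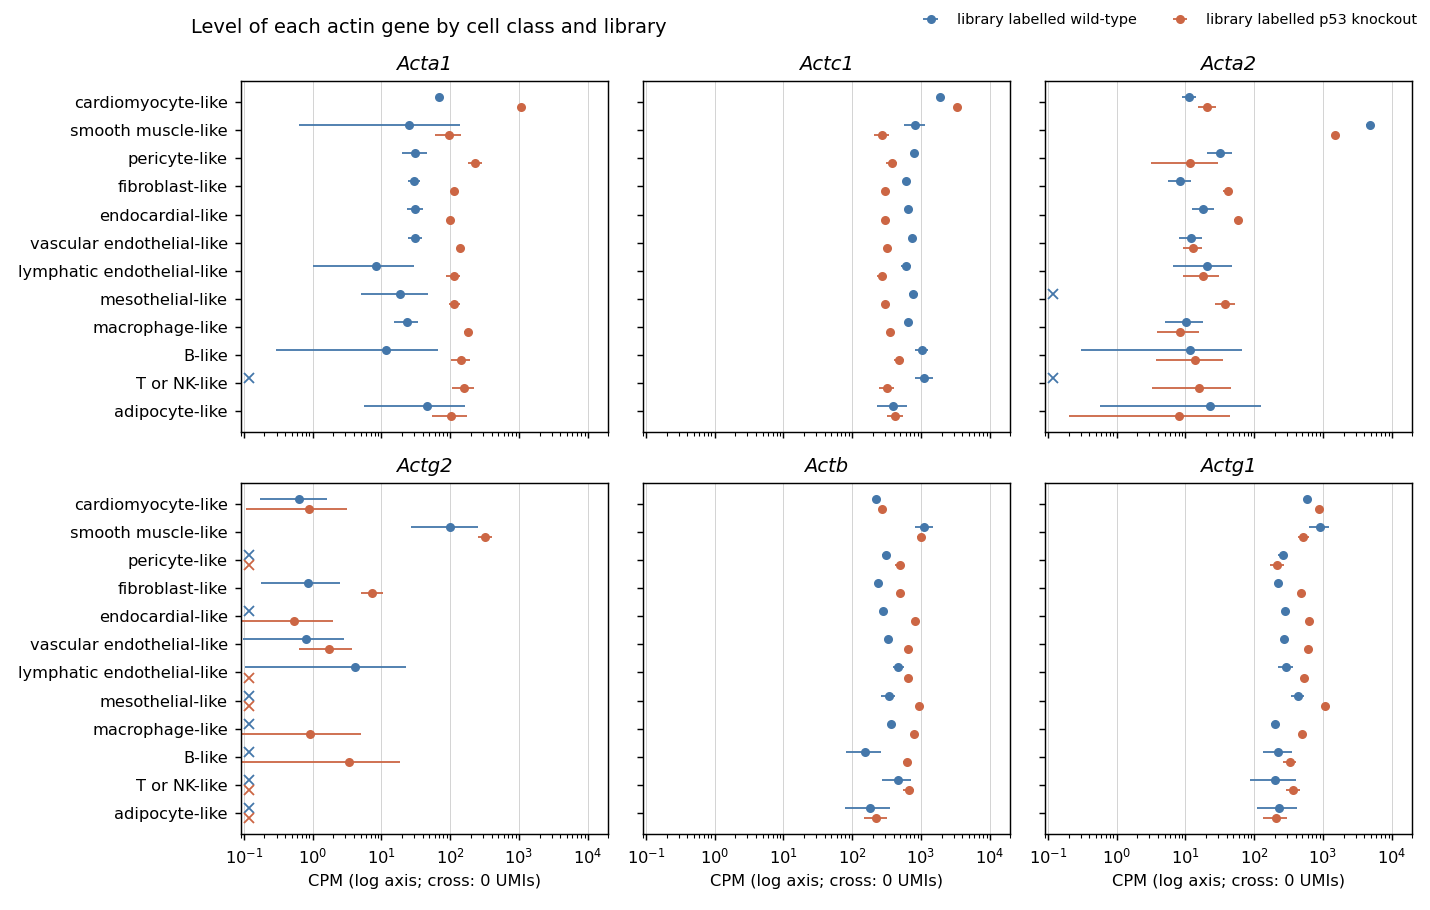
Level of each actin gene in CPM (log axis) in the 12 named cell classes, 1 point per library with its exact 95% Poisson interval, and a cross where a library had 0 UMIs. Acta1 and Actc1 were highest in cardiomyocyte-like cells and Acta2 and Actg2 in smooth muscle-like cells, in both libraries.

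Outside cardiomyocyte-like cells, RNA of the sarcomeric actins was found in almost every class, immune cells included. Acta1 ranged from 0 to 45.7 CPM over the other 11 classes in the WT-labelled library, with a median of 24.9, and from 95.3 to 233 CPM in the other library, with a median of 115. B-like cells, which should lack both genes, had 11.8 and 143 CPM of Acta1, and T or NK-like cells had 0 and 158 CPM. Actc1 ranged from 389 to 1116 CPM and from 268 to 477 CPM over the same classes, and B-like cells had 1039 and 477 CPM. The markers of cardiomyocytes moved the way of Actc1 but further, with 1.23% of UMIs in B-like cells of the WT-labelled library and 0.216% in the other. B-like cells held 88 and 140 Actc1 UMIs against 1040 and 634 marker UMIs. Cardiomyocyte-like cells held 11969 and 7532 against 371710 and 132026. Relative to the markers, Actc1 was thus higher in B-like than in cardiomyocyte-like cells of both libraries, and the reason was not tested. The levels outside cardiomyocyte-like cells were not all alike. In the p53KO-labelled library Acta1 was highest there in pericyte-like cells, with 233 CPM (185 to 289), which overlaps B-like cells (103 to 193) and not endocardial-like cells (89.6 to 110.2). No class other than cardiomyocyte-like cells had an interval wholly above the B-like one of its library, for Acta1 or Actc1, so these levels are not read as expression and are called background below.

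Cardiomyocyte-like cells of the p53KO-labelled library held far more Acta1 RNA and a larger share of Acta1 among their actins. Acta1 had 429 UMIs or 68.9 CPM (62.5 to 75.7) in the WT-labelled library and 2390 UMIs or 1062 CPM (1019 to 1105) in the other, which gives a log2 ratio of 3.95 (3.80 to 4.10). Actc1 had 1921 CPM (1887 to 1956) and 3346 CPM (3270 to 3422), and its log2 ratio was 0.80 (0.76 to 0.84). For neither gene do the intervals of the libraries overlap, and both levels in the p53KO-labelled library were above its B-like background. In the WT-labelled library, Actc1 had 1921 CPM against 1039 CPM (834 to 1281) in B-like cells, whereas the Acta1 interval overlapped that of B-like cells (0.299 to 65.8 CPM), which rests on 1 UMI, and lay above that of fibroblast-like cells, with 29.7 CPM.

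The cytoplasmic actins of cardiomyocyte-like cells differed less between the libraries. Actg1 had 583 CPM (564 to 602) and 883 CPM (845 to 923), a log2 ratio of 0.60 (0.52 to 0.68). Actb had 226 CPM (214 to 238) and 268 CPM (247 to 291), a log2 ratio of 0.25 (0.11 to 0.39). Both levels were higher in the p53KO-labelled library beyond counting error. Values of Actg1 are uncertain in every class, because 48.0% of the 60-base stretches in the last 500 bases of its coding transcripts also occur in transcripts of 13 other genes, against 6.94% for Actb, 2.38% for Acta1 and 0% for Acta2, Actc1 and Actg2. The smooth muscle actins were near background here, with 71 and 47 UMIs of Acta2 and 4 and 2 UMIs of Actg2.

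Of the 4 actins with at least 100 UMIs in a library of cardiomyocyte-like cells, 1 (Acta1) was at least 2-fold higher in the p53KO-labelled library and 0 were at least 2-fold lower. Of all 8454 genes with that many UMIs, 2.34% were at least 2-fold higher and 10.2% at least 2-fold lower, and the median log2 ratio was -0.24. Acta2 and Actg2 did not reach 100 UMIs. All 4 ratios lay above the median of all genes.

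By share of UMIs, the actin pool held more Acta1 and less Actc1 in the p53KO-labelled library. The shares include background, which differed between the libraries: B-like cells had 1039 and 477 CPM of Actc1. Its part in the shares was not tested. Acta1 was 2.45% (2.23 to 2.69) of all actin UMIs of cardiomyocyte-like cells in the WT-labelled library and 19.0% (18.3 to 19.7) in the other. Actc1 was 68.4% and 59.95%, Actg1 20.7% and 15.8%, and Actb 8.02% and 4.81%. The share of Acta1 was higher and those of the other 3 were lower in the p53KO-labelled library, while the actin genes together had 2810 and 5580 CPM. Divided by exonic length, a scale for comparing genes that suits reads spread along a transcript better than reads from its 3' end, Acta1 was 2.91% and 21.6% of the pool, Actc1 77.0% and 64.6%, Actg1 14.2% and 10.4%, and Actb 5.46% and 3.13%. On both scales the order was Actc1, Actg1, Actb and Acta1 in the WT-labelled library, and Actc1, Acta1, Actg1 and Actb in the other.

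**Figure D2:**
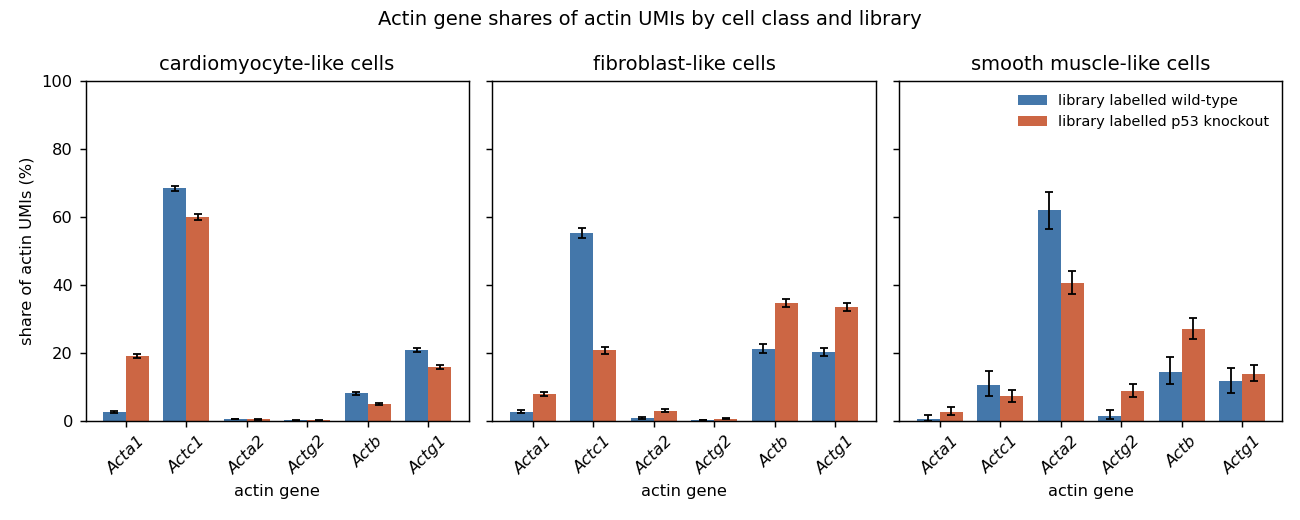
Share of each actin gene among the UMIs of all 6 (percent) in cardiomyocyte-like, fibroblast-like and smooth muscle-like cells, with bars from 0 for each library and exact 95% Clopper-Pearson intervals. In cardiomyocyte-like cells Acta1 was 2.45% in the WT-labelled library and 19.0% in the other, and in smooth muscle-like cells Acta2 was 62.0% and 40.7%.

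Acta1 was also found in a larger share of the cells, and unevenly. After each cell was thinned to 500 UMIs, 2.32% of cardiomyocyte-like cells of the WT-labelled library and 26.4% of those of the other held an Acta1 UMI, against 1.19% and 5.88% of B-like cells. Without thinning the shares were 4.56% and 45.3%, where the median cell had 977 and 1759.5 UMIs, against 1.19% and 11.8% of B-like cells at 930.5 and 1126 UMIs. The highest count in 1 cell was 17 and 62 UMIs, and 14 and 150 cells held at least 5. In the p53KO-labelled library, the tenth of cells with the most Acta1 held 62.8% of its UMIs. For Actc1, thinned shares were 42.1% and 52.9% of cells, against 33.3% and 19.7% of B-like cells, so that most of the difference from background lay in the p53KO-labelled library.

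The cardiomyocyte-like cells fell into 4 clusters, which the libraries filled very differently. The cluster with Mir133a-1hg among its leading genes held 2491 cells of the WT-labelled library and 33 of the other, and the cluster led by Mhrt and Ttn held 1559 and 100. The cluster led by Nppa and Mb held 842 and 317 cells, with median mitochondrial shares of 20.6% and 18.9% of UMIs, and the cluster led by Myh7 and Myocd held 18 and 410. Acta1 was higher in the p53KO-labelled library within each of the 3 clusters that could be compared, but only the Nppa and Mb cluster was above the B-like background of both libraries. It had 357 CPM (317 to 401) and 3424 CPM (3272 to 3580) in the Nppa and Mb cluster, a log2 ratio of 3.26 (3.08 to 3.45).

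In the Mhrt and Ttn cluster, Acta1 had 32.2 and 433 CPM with a log2 ratio of 3.75 (2.98 to 4.50). In the Mir133a-1hg cluster it had 25.0 and 160 CPM with a log2 ratio of 2.74 (1.51 to 3.65). The level in the p53KO-labelled library, from 9 UMIs, was close to its B-like background of 143 CPM. In the WT-labelled library both clusters lay within the B-like interval. The log2 ratio of Acta1 in B-like cells was itself 3.03 (1.04 to 8.93), so these ratios are not read apart from background. The Myh7 and Myocd cells of the p53KO-labelled library had 279 CPM (254 to 307), and there were too few such cells in the other library to give a level. The Nppa and Mb cluster thus had the highest Acta1 level of any cluster in both libraries.

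Actc1 did not follow the same course. It was higher in the p53KO-labelled library in the Nppa and Mb cluster, with 8277 CPM (8079 to 8478) and 10959 CPM (10687 to 11237), a log2 ratio of 0.41 (0.35 to 0.46). It had 976 and 969 CPM in the Mhrt and Ttn cluster, a log2 ratio of 0.00 (-0.39 to 0.35), and 984 and 657 CPM in the Mir133a-1hg cluster, a log2 ratio of -0.56 (-1.09 to -0.12). The levels of these last 2 clusters in the WT-labelled library lay within the 834 to 1281 CPM of its B-like cells.

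The Nppa and Mb cluster carried the class's Actc1 ratio. Without it, Actc1 had 983 and 830 CPM, and its log2 ratio turned to -0.24 (-0.33 to -0.16). The first of these Actc1 levels lay within the B-like interval of its library, where B-like cells had 1039 CPM. The second lay above the 477 CPM of B-like cells of the other library, so this ratio sets a level at background against one above it. Acta1 without that cluster had 26.3 and 281 CPM with a log2 ratio of 3.41 (3.14 to 3.70), and was 1.40% and 11.8% of actin UMIs. The first of these Acta1 levels lay within the B-like interval of its library, and the second above that of the other (103 to 193 CPM). Actb turned to a log2 ratio of -0.12 (-0.29 to 0.06), while Actg1 kept 0.72 (0.64 to 0.81) and was 33.7% and 43.9% of actin UMIs. The part of mitochondrial RNA content in these levels was not tested. Of the cells left, the Myh7 and Myocd cluster held 18 of 4068 in the WT-labelled library and 410 of 543 in the other. It held 30640 of 5428693 and 1568869 of 1692250 nuclear-encoded UMIs. Every ratio without the Nppa and Mb cluster, lists included, thus mostly sets Myh7 and Myocd cells of the p53KO-labelled library against cells of other clusters. Over the whole class the 10 cardiomyocyte markers summed to 59661 and 58644 CPM. The sums of some other lists were lower in the p53KO-labelled library, with 1749 and 1073 CPM for the 10 fibroblast markers and 3295 and 2682 CPM for the 10 vascular endothelial markers. Other sums were higher there, with 94.4 and 6646 CPM for the 9 atrial markers, 35.3 and 68.0 CPM for the 9 mesothelial markers and 9.15 and 34.6 CPM for the 9 neutrophil markers. Most of the atrial sum was Nppa, which encodes atrial natriuretic peptide and which the loaded ventricle also makes, with 44.0 and 5690 CPM. The atrial light chain gene Myl7 had 9 and 501 UMIs, Sln, which encodes sarcolipin, 3 and 246, and Myl4, another atrial light chain, 40 and 1186. Of the 9 atrial markers, 6 were higher beyond counting error and 3 had intervals that hold 0, and their part in the actin ratios was not tested beyond leaving out the cells that held them, as given below for 4 of the genes.

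The make-up of the pool differed between clusters as well. In the Nppa and Mb cluster, Actc1 and Acta1 were 90.6% and 3.91% of actin UMIs in the WT-labelled library and 71.7% and 22.4% in the other. Actg1 was 2.74% and 2.61% there, and in the Mir133a-1hg cluster it was 35.3% in the first library and 45 of 100 UMIs in the second. In the Myh7 and Myocd cells of the p53KO-labelled library, Actg1 was 44.9%, Actc1 34.8% and Acta1 11.7%.

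**Figure D3:**
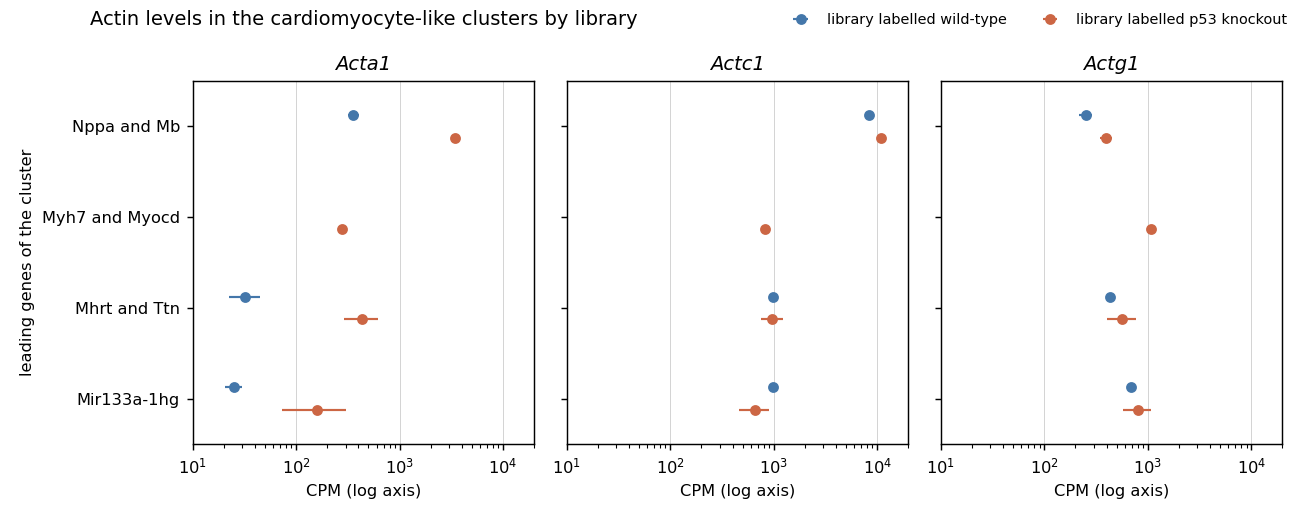
Levels of Acta1, Actc1 and Actg1 in CPM (log axis) in the 4 cardiomyocyte-like clusters, 1 point per library with its exact 95% Poisson interval; the WT-labelled library had 18 cells in the Myh7 and Myocd cluster and is not drawn there. Acta1 was higher in the p53KO-labelled library in all 3 clusters with both libraries, and Actc1 in the Nppa and Mb cluster. Only in the Nppa and Mb cluster was Acta1 above the B-like background of both libraries.

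Myh7, the slow myosin heavy chain of the fetal and loaded ventricle, marked cells with more Acta1 in both libraries. Cells with a Myh7 UMI had 112 and 1291 CPM of Acta1, and cells without one had 58.7 and 569 CPM, with log2 ratios of 3.52 (3.27 to 3.79) and 3.28 (3.06 to 3.50). Cells with more UMIs are more likely to hold a Myh7 UMI, and their median depths were 1142 and 2002 UMIs against 943 and 1350.5 for cells without one. Cells that held a UMI of an atrial gene (Myl7, Sln, Bmp10 or Sbk2) numbered 28 and 73, and had 65.0 and 408 CPM of Acta1 and 1862 and 7095 CPM of Actc1. Leaving them out gave log2 ratios of 4.03 for Acta1 and 0.63 for Actc1.

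The partners of actin in the sarcomere were mostly higher in the p53KO-labelled library, with Acta1 above all of them. Of the 21 genes of the thin filament and Z-disc, 20 had at least 20 UMIs over both libraries; 14 were higher and 6 lower, 9 were at least 2-fold higher and 1 at least 2-fold lower, with a median log2 ratio of 0.60. Of all 13687 genes at that threshold, 33.4% were higher, 4.22% at least 2-fold higher and 15.8% at least 2-fold lower, with a median of -0.26. Synpo2l, a Z-disc protein, had 40.9 and 210 CPM, the highest ratio of the list at 2.36 (2.13 to 2.58). Tpm1, the tropomyosin that lies along the actin filament, had 2245 and 3309 CPM. Tnnt2 and Tnni3, the cardiac troponins T and I, had 7315 and 5798 CPM and 1832 and 1695 CPM.

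Tmod4, a tropomodulin that caps the end of the filament, had 19.1 and 5.77 CPM, the lowest ratio of the list at -1.68 (-2.68 to -0.90). Other genes at least 2-fold higher were Actn2, the alpha-actinin that anchors actin in the Z-disc, with 1105 and 2630 CPM, and Flnc, a filamin, with 97.9 and 394 CPM. Actn2 and Nrap of this list are leading genes of the Myh7 and Myocd cluster, which the libraries filled with 18 and 410 cells. With the Nppa and Mb cluster left out, 14 of 20 were higher and 6 lower, 8 were at least 2-fold higher and 2 at least 2-fold lower, with a median of 0.38. Of all 13165 genes, 27.3% were then higher, 3.25% at least 2-fold higher and 20.9% at least 2-fold lower, with a median of -0.36. Tnni3 then had a log2 ratio of -0.70 (-0.78 to -0.61).

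**Figure D4:**
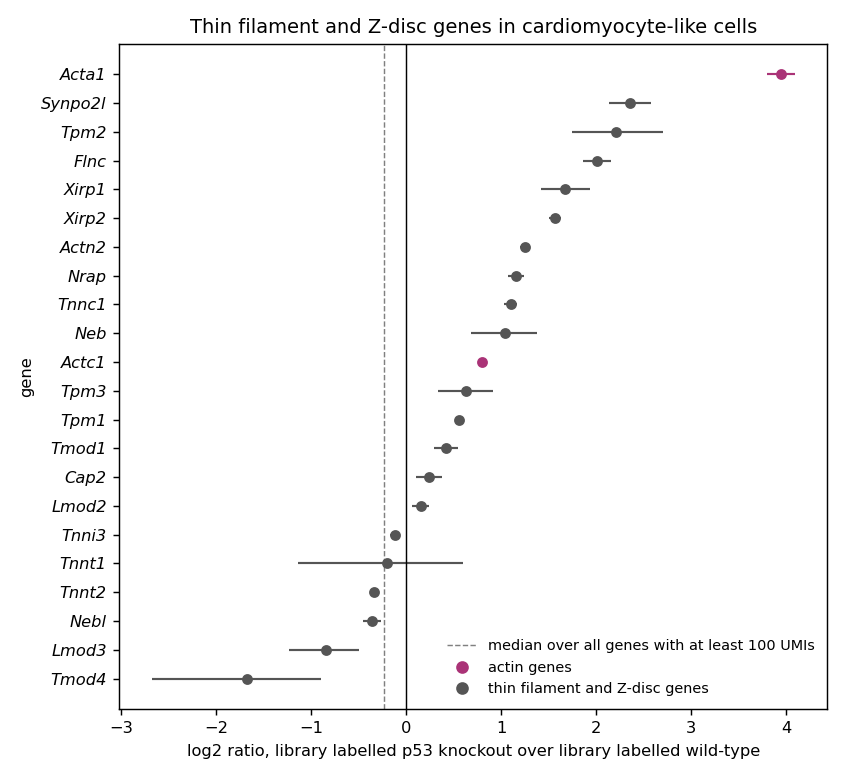
Log2 ratio of the p53KO-labelled library over the WT-labelled library in cardiomyocyte-like cells, for Acta1, Actc1 and the 20 thin filament and Z-disc genes with at least 20 UMIs, with exact 95% conditional binomial intervals. Acta1 at 3.95 lay above every gene of the list, the highest of which was Synpo2l at 2.36, and Actc1 at 0.80 lay among them.

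The SRF machinery showed no common direction in cardiomyocyte-like cells. Of 18 genes for SRF, its cofactors and the kinases and other signalling proteins that act on actin, 7 were higher and 11 lower, 2 were at least 2-fold higher and 0 at least 2-fold lower, with a median log2 ratio of -0.14. Of all 13687 genes with at least 20 UMIs over both libraries, 33.4% were higher, 4.22% at least 2-fold higher and 15.8% at least 2-fold lower, with a median of -0.26. Fhl2, an SRF-binding LIM protein, had 2745 and 5153 CPM, and Myocd, which encodes myocardin, had 729 and 1539 CPM with a log2 ratio of 1.08. Both are leading genes of the Myh7 and Myocd cluster, which held 18 and 410 cells, so their ratios over the class are a description only. Rock2, a kinase that promotes contraction, had 513 and 686 CPM. In the list the ratio was highest for Abra, an actin-binding activator of SRF signalling, with 74.3 and 174 CPM, and lowest for Limk1, a kinase of cofilin, with 38 and 7 UMIs. With the Nppa and Mb cluster left out, 6 were higher and 12 lower, 3 were at least 2-fold higher, and Fhl2 and Myocd had log2 ratios of 1.09 and 1.29. Of all genes, 27.3% were then higher and 3.25% at least 2-fold higher.

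Genes that turn actin over were shifted less than those of the thin filament and Z-disc. Of 32 genes for monomer binding, nucleation and turnover, 20 were higher and 12 lower, 4 at least 2-fold higher and 1 at least 2-fold lower, with a median of 0.26. Of all 13687 genes at the threshold of the lists, 33.4% were higher, 4.22% at least 2-fold higher and 15.8% at least 2-fold lower, with a median of -0.26. Gsn, which encodes the severing protein gelsolin and is also a fibroblast marker, had 668 and 418 CPM, and the formins Fhod3 and Daam1 had 1448 and 1289 CPM and 322 and 309 CPM. The extremes were both coronins from few counts, Coro1a with 13 and 32 UMIs and Coro1b with 44 and 6. When the Nppa and Mb cluster was left out, the list split evenly, 16 higher and 16 lower, with a median of 0.02. Of all 13165 genes, 27.3% were then higher, with a median of -0.36.

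Of 20 genes that bundle actin or link it to membranes, 13 were higher and 7 lower, 2 at least 2-fold higher and 0 at least 2-fold lower, with a median of 0.23. Of all genes, 33.4% were higher, 4.22% at least 2-fold higher and 15.8% at least 2-fold lower, with a median of -0.26. Dmd, which encodes dystrophin, had 4392 and 8897 CPM with a log2 ratio of 1.02 (0.99 to 1.04). It is also a leading gene of the Myh7 and Myocd cluster, which held 18 and 410 cells. Palld, a scaffold of actin bundles, had 1979 and 2325 CPM, and Sptbn1, a spectrin, had 1455 and 1124 CPM. The ratio was highest for Flna, a filamin, with 44.1 and 94.2 CPM. When the Nppa and Mb cluster was left out, 12 were higher and 8 lower, with a median of 0.19, against 27.3% of all genes higher and a median of -0.36.

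Of 16 genes that fold or modify actin, 10 were higher and 6 lower, 2 at least 2-fold higher and 0 at least 2-fold lower, with a median of 0.25. Of all genes, 33.4% were higher, 4.22% at least 2-fold higher and 15.8% at least 2-fold lower, with a median of -0.26. The list members at least 2-fold higher were Mical1, with 42 and 32 UMIs, and Mical2, with 138 and 291 CPM, both oxidases of actin filaments. Their relative Mical3 had 345 and 532 CPM. Setd3, which methylates actin, had 67.1 and 97.7 CPM, and Naa10, an acetyltransferase, had 14.8 and 7.99 CPM. After the Nppa and Mb cluster was left out, 6 were higher and 10 lower, with a median of -0.40, against 27.3% of all genes higher and a median of -0.36.

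Fibroblast-like cells held little Acta2, and more of it in the p53KO-labelled library. Acta2 had 29 UMIs or 8.43 CPM (5.65 to 12.1) in the WT-labelled library and 173 UMIs or 41.2 CPM (35.3 to 47.8) in the other, which gives a log2 ratio of 2.27 (1.71 to 2.91). Its share of actin UMIs was 0.755% (0.506 to 1.08) and 2.85% (2.45 to 3.30). The intervals of the libraries do not overlap. B-like cells had 1 and 4 UMIs, or 11.8 and 13.6 CPM, so that the level of the WT-labelled library was within its background and that of the other was above it.

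Few of the cells carried that Acta2 RNA. After thinning to 500 UMIs, 0.383% and 1.53% of fibroblast-like cells held an Acta2 UMI, against 0% and 0.840% of B-like cells; the first of these allows a share of up to 3.57%. Without thinning the shares were 0.734% and 4.43%, where the median cell had 1000 and 1742 UMIs. The thinned share of the p53KO-labelled library overlaps the B-like interval (0.102 to 3.002%) and is near the level of 1 UMI, so that it shows no difference by itself. The highest count was 3 UMIs in 1 cell of the WT-labelled library and 12 in the other, where 6 cells held at least 5.

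All 173 Acta2 UMIs of the p53KO-labelled library lay in the cluster led by Cilp and Nox4, which held 1908 of its 2032 fibroblast-like cells and 121 of the other library's 3133. The cluster led by Abca6 and Lvrn held 3012 and 124 cells with 28 and 0 Acta2 UMIs. Within the Cilp and Nox4 cluster, Acta2 had 1 and 173 UMIs, or 6.14 and 42.9 CPM, a log2 ratio of 2.22 with a wide interval (0.31 to 8.12). Actg2 had 3 and 31 UMIs over the class, of which 0 and 31 lay in the Cilp and Nox4 cluster. In the p53KO-labelled library that cluster held 4029276 of the class's 4203337 nuclear-encoded UMIs. The split of Actg2 is thus close to how the libraries fill the clusters.

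The markers of smooth muscle moved in both directions in fibroblast-like cells. Tagln, which encodes the actin-binding protein transgelin, had 18 and 197 UMIs or 5.23 and 46.9 CPM, and its log2 ratio was 3.13 (2.46 to 3.95). Mylk, the kinase of myosin light chain, had 20.6 and 61.6 CPM and Lmod1, a leiomodin, 3.20 and 10.5 CPM, whereas Smtn, Synpo2 and Itga8 were lower. Of the 10 markers, 3 were thus higher and 3 lower beyond counting error, and the part of smooth muscle RNA in the Acta2 ratio was not tested. The 10 markers summed to 359 CPM in the WT-labelled library and 351 CPM in the other, from 0 to 143 and from 0.476 to 99.9 CPM, with 1 and 0 of them at 0. The 10 pericyte markers summed to 436 and 444 CPM. At a finer clustering, a cluster of 72 and 625 cells led by Csmd1, Thbs1 and Col11a1 stayed unnamed. In the cells then named fibroblast-like, the log2 ratio of Acta2 was 1.44 and its share in the p53KO-labelled library 1.76%.

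Most genes of the activated fibroblast were far higher in the p53KO-labelled library, and they include the genes that lead its cluster. Of the 22 genes, 21 were higher and 1 lower, 19 were at least 2-fold higher and 1 at least 2-fold lower, with a median log2 ratio of 2.93. Of all 13756 genes with at least 20 UMIs over both libraries, 42.6% were higher, 6.59% at least 2-fold higher and 11.3% at least 2-fold lower, with a median of -0.10. The matrix proteins Ccn2, Col3a1, Col1a2 and Comp had 210 and 2388 CPM, 910 and 1971 CPM, 780 and 1874 CPM, and 10.2 and 648 CPM. Fap, a surface protease, was the exception with 354 and 156 CPM. Since both libraries fill different fibroblast clusters, whose genes define them, these sums over the whole class, few of whose cells held an Acta2 UMI, are a description only.

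The cytoplasmic actins were about 2-fold higher in fibroblast-like cells of the p53KO-labelled library. Actb had 235 and 501 CPM with a log2 ratio of 1.09 (0.97 to 1.21), and Actg1 had 225 and 483 CPM with a log2 ratio of 1.10 (0.98 to 1.22). Within the Abca6 and Lvrn cluster the log2 ratios were 0.87 (0.49 to 1.203) and 0.89 (0.51 to 1.23), and within the Cilp and Nox4 cluster 1.02 (0.59 to 1.53) and 0.71 (0.31 to 1.17). Acta1 had 29.7 and 113 CPM and Actc1 617 and 299 CPM, neither above the B-like level of its library. By UMIs, Actc1 was 55.2% and 20.7% of the pool, Actb 21.1% and 34.7%, Actg1 20.2% and 33.4%, and Acta1 2.66% and 7.80%, so the shares of this class are set in part by the background. Divided by exonic length, Actc1 was 66.0% and 28.4%, Actb 15.2% and 28.7%, and Actg1 14.7% and 27.9%.

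Of the 5 actins with at least 100 UMIs in a library of fibroblast-like cells, 4 (Acta1, Acta2, Actb and Actg1) were at least 2-fold higher and 1 (Actc1) at least 2-fold lower in the p53KO-labelled library. Of 8015 genes, 5.73% were at least 2-fold higher and 6.34% at least 2-fold lower, with a median log2 ratio of -0.03. Of the 4 that were higher, Acta1 is background, as is Actc1.

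The general actin machinery did not follow Acta2 in fibroblast-like cells. Of 32 genes for monomer binding, nucleation and turnover, 20 were higher and 12 lower, 1 at least 2-fold higher and 3 at least 2-fold lower, with a median of 0.14. Of all genes, 42.6% were higher, 6.59% at least 2-fold higher and 11.3% at least 2-fold lower, with a median of -0.10. Gsn had 8126 and 7515 CPM, Daam1 258 and 187 CPM, and Tmsb4x, which encodes the monomer-binding thymosin beta-4, 252 and 301 CPM. The extremes were Coro1a with 15 and 48 UMIs and Fhod3 with 173 and 28.5 CPM.

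Of the 18 SRF and signalling genes, 8 were higher and 10 lower in fibroblast-like cells, 0 at least 2-fold higher and 2 at least 2-fold lower, with a median of -0.01. Of all genes, 42.6% were higher, 6.59% at least 2-fold higher and 11.3% at least 2-fold lower, with a median of -0.10. In the list Mrtfa, the cofactor that senses free actin monomers, was highest with 86.4 and 118 CPM, a log2 ratio of 0.46 (0.25 to 0.67). Ssh2, a phosphatase of cofilin, had 1045 and 556 CPM, and the kinases Rock1 and Rock2 had 445 and 393 CPM and 587 and 654 CPM. Abra was lowest with 49 and 7 UMIs.

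Smooth muscle-like cells were few, 43 in the WT-labelled library and 99 in the other, and Acta2 was their leading actin in both. It had 194 UMIs or 4832 CPM in the WT-labelled library and 350 UMIs or 1515 CPM in the other, so that its log2 ratio was -1.67 (-1.93 to -1.41). Actg2 went the other way, with 4 and 75 UMIs or 99.6 and 325 CPM, and its log2 ratio was 1.54 (0.29 to 3.62). For Acta2 the libraries' intervals do not overlap.

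Acta2 was 62.0% (56.4 to 67.4) of actin UMIs of these cells in the WT-labelled library and 40.7% (37.3 to 44.0) in the other. Actg2 was 1.28% and 8.71%, Actb 14.4% and 27.1%, Actg1 11.5% and 13.8%, and Actc1 10.5% and 7.20%. The lower share of Acta2 was matched mostly by higher shares of Actb and Actg2. Divided by exonic length, Acta2 was 62.1% and 40.7%, Actb 11.8% and 22.2%, and Actg2 1.81% and 12.3%. As levels, Actb had 1121 and 1009 CPM with a log2 ratio of -0.16 (-0.62 to 0.34), and Actg1 had 897 and 515 CPM with a log2 ratio of -0.81 (-1.35 to -0.22).

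The UMIs of both smooth muscle actins were uneven over the cells. After thinning, 55.8% (39.9 to 70.9) of the cells of the WT-labelled library and 32.3% (23.3 to 42.5) of those of the other held an Acta2 UMI, and without thinning 69.8% and 67.7%, where the median cell had 923 and 2137 UMIs. The highest counts in 1 cell were 37 and 32. For Actg2 the highest were 2 and 26 UMIs, and in the p53KO-labelled library the 10 cells with the most held 93.3% of its UMIs, of which 3 cells held at least 5. The Actg2 ratio thus rests on very few cells.

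Of the 3 actins with at least 100 UMIs in a library of smooth muscle-like cells (Acta2, Actb and Actg1), 0 were at least 2-fold higher and 1 (Acta2) at least 2-fold lower in the p53KO-labelled library. With cells of at most 10% mitochondrial UMIs the log2 ratio of Acta2 was -0.96 (-1.26 to -0.64), which is short of 2-fold. Of only 277 such genes, 28.5% were at least 2-fold higher and 5.05% at least 2-fold lower, with a median log2 ratio of 0.44.

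The other contractile genes were mostly lower as well. Of 20 genes of smooth muscle contraction, 19 had at least 20 UMIs; 3 were higher and 16 lower, 1 at least 2-fold higher and 7 at least 2-fold lower, with a median of -0.81. Of all 3216 genes at that threshold, 52.8% were higher, 21.4% at least 2-fold higher and 14.1% at least 2-fold lower, with a median of 0.09. Myh11, the smooth muscle myosin heavy chain, had 5480 and 2663 CPM with a log2 ratio of -1.04 (-1.27 to -0.81), and Cnn1, which encodes calponin, had 11 and 9 UMIs or 274 and 39.0 CPM. Cald1, which encodes caldesmon, had 1968 and 2182 CPM, Flna 3089 and 2399 CPM, and the integrin Itga8 448 and 970 CPM.

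The 10 markers that named the class, which overlap with that list, summed to 13451 CPM in the WT-labelled library and 8573 CPM in the other, each marker above 0. Over the same cells the 10 fibroblast markers summed to 2391 and 6482 CPM, from 0 to 922 and from 43.3 to 2295 CPM, with 2 and 0 of them at 0. The 10 pericyte markers summed to 4932 and 4373 CPM. The part of the fibroblast RNA in the Acta2 ratio was not tested.

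Of 18 SRF and signalling genes, 11 had at least 20 UMIs in smooth muscle-like cells. Of these, 7 were higher and 4 lower, 4 at least 2-fold higher and 0 at least 2-fold lower, with a median of 0.28. Of all genes, 52.8% were higher, with the 21.4% and 14.1% by 2-fold given above. Fhl1 and Fhl2 had 3 and 99 UMIs and 13 and 211 UMIs, log2 ratios of 2.31 (0.93 to 4.82) and 1.45 (0.69 to 2.43). Rock1 and Rock2 had 1470 and 1160 CPM and 523 and 1134 CPM, and Mrtfb, a relative of Mrtfa, was lowest with 9 and 30 UMIs or 224 and 130 CPM.

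Pericyte-like cells, the neighbours of smooth muscle on small vessels, held little Acta2. It had 25 and 4 UMIs, or 32.2 CPM (20.9 to 47.6) and 11.5 CPM (3.13 to 29.4), and the log2 ratio of -1.35 has an interval that reaches 0 (-3.47 to 0.05). Their 10 pericyte markers summed to 11732 and 16288 CPM, and their smooth muscle markers to 1062 and 963 CPM. Actg2 had 0 UMIs in both libraries. Of 3 actins with at least 100 UMIs, 0 were at least 2-fold higher and 1 (Actc1, at background) at least 2-fold lower, against 2.82% and 6.82% of 1774 genes. Actb had 313 and 494 CPM and Actg1 258 and 213 CPM.

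Endocardial-like cells, which line the heart's chambers, held the second highest level of Acta2 in the p53KO-labelled library. Acta2 had 31 UMIs or 18.2 CPM (12.3 to 25.8) in the WT-labelled library and 214 UMIs or 57.8 CPM (50.4 to 66.1) in the other, which gives a log2 ratio of 1.65 (1.12 to 2.26). Of the 214 UMIs, 206 lay in the cluster led by Nrg1 and Selp, which held 21 and 1329 cells. Within that cluster the log2 ratio was 0.21 (-1.70 to 6.10), and within the cluster led by H19 and Cytl1, with 1582 and 225 cells, it was 0.84 (-0.56 to 1.93), so that neither shows the difference by itself. Thinned shares of cells with a UMI were 0.998% and 1.67%, which do not stand apart from each other or from the B-like share. Of 5 actins with at least 100 UMIs, 4 (Acta1, Acta2, Actb and Actg1) were at least 2-fold higher and 1 (Actc1) at least 2-fold lower, against 6.18% and 4.93% of 7042 genes, with Acta1 and Actc1 at background.

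Mesothelial-like cells, of the epicardial surface, had 0 Acta2 UMIs in the WT-labelled library and 37 in the other. The second level was 37.7 CPM (26.6 to 52.0), above the upper bound of 17.1 CPM that 0 UMIs in 179 cells leave for the first. Of 4 actins with at least 100 UMIs, 3 (Acta1, Actb and Actg1) were at least 2-fold higher and 1 (Actc1) at least 2-fold lower, against 15.4% and 4.42% of 2217 genes. In the remaining classes other than cardiomyocyte-like cells Acta2 ranged from 0 to 22.9 CPM in the WT-labelled library and from 7.97 to 17.8 CPM in the other, within the counting error of the B-like level.

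In order of level, smooth muscle-like cells of the WT-labelled library came first in Acta2, far above pericyte-like cells. The pericyte-like interval overlaps that of B-like cells, and so do those of the classes below it. In the other library the order was smooth muscle-like, endocardial-like, fibroblast-like, mesothelial-like and cardiomyocyte-like cells. There fibroblast-like and mesothelial-like cells overlapped, as did cardiomyocyte-like cells (15.3 to 27.8 CPM) and mesothelial-like cells.

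The cytoplasmic actins were higher in the p53KO-labelled library in nearly every class. Actb was higher in 11 of 12 classes, with an interval above 0 in 9 (in smooth muscle-like cells its log2 ratio of -0.16 turned to 0.23 with TMM factors), and Actg1 in 9 of 12, with an interval above 0 in 7 and below 0 in 1 (smooth muscle-like). Actb was highest in smooth muscle-like cells in both libraries, with 1121 and 1009 CPM. In the p53KO-labelled library it was followed by mesothelial-like cells with 951 CPM (891 to 1014), endocardial-like cells with 831 CPM (802 to 861) and macrophage-like cells with 796 CPM (744 to 851). The first pair overlapped, as did the last.

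In endocardial-like cells the level of Actb was 282 and 831 CPM, and its log2 ratio of 1.56 (1.42 to 1.70) was the highest among classes with at least 100 Actb UMIs in both libraries. Within the H19 and Cytl1 cluster it was 0.91 (0.62 to 1.18), and within the Nrg1 and Selp cluster 1.38 (0.53 to 2.59). In mesothelial-like cells it had 338 and 951 CPM with a log2 ratio of 1.48 (1.15 to 1.86), and Actg1 had 431 and 1077 CPM, the highest Actg1 level of any class in that library. In macrophage-like cells, which move by actin assembly, Actb had 368 and 796 CPM and Actg1 199 and 497 CPM, log2 ratios of 1.11 (0.94 to 1.29) and 1.32 (1.09 to 1.56). The pattern was thus seen across lining, surface and macrophage-like cells. In B-like cells the log2 ratio of Actb was 1.99 (1.23 to 2.97), whereas the Actg1 interval holds 0 (-0.18 to 1.34). In T or NK-like cells the intervals of Actb (-0.17 to 1.34) and Actg1 (-0.19 to 2.13) hold 0.

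In vascular endothelial-like cells Actb had 327 and 656 CPM with a log2 ratio of 1.002 (0.89 to 1.12), and Actg1 had 273 and 604 CPM with a log2 ratio of 1.14 (1.02 to 1.27). The libraries filled different clusters of this class, with 2490 and 267 cells in the cluster led by Dach1 and Gabrb2, 164 and 1210 in that led by Depp1 and Igfbp3, and 73 and 551 in that led by Igfbp5 and Stc1. Within them the log2 ratios of Actb were 0.66, 0.60 and 0.49 and those of Actg1 0.84, 0.60 and 0.33, all with intervals above 0 and none at 2-fold. Acta2 in the class had 12.0 and 12.8 CPM, within counting error. Lymphatic endothelial-like cells had 470 and 649 CPM of Actb and 289 and 530 CPM of Actg1. Of 4 actins with at least 100 UMIs in vascular endothelial-like cells, 3 (Acta1, Actb and Actg1) were at least 2-fold higher and 1 (Actc1) at least 2-fold lower, against 5.8% and 6.19% of 6862 genes. Of 4 in macrophage-like cells, 3 (Acta1, Actb and Actg1) were at least 2-fold higher and 0 lower, against 6.43% and 7.6% of 3250 genes. Of 3 in lymphatic endothelial-like cells, 0 were at least 2-fold higher and 1 (Actc1) at least 2-fold lower, against 8.14% and 2.39% of 1633 genes. Acta1 and Actc1 in these 3 classes were at background.

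The depth of the cells moved with these values, since the p53KO-labelled library had the higher median UMI count per cell in each of the 12 classes. In the class sums each library is scaled to its own nuclear-encoded UMIs. The part of cell depth in the ratios of Actb and Actg1 was not tested outside the 3 classes whose ratios were recomputed after thinning. In fibroblast-like cells the log2 ratio of Actb ranged from 0.93 to 1.26 over 10 alternative settings, thinning included.

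The actin-related proteins, relatives of actin in branching, dynactin and chromatin remodelling complexes, mostly differed by less than 2-fold. Of the 11 genes, 8 had at least 20 UMIs in cardiomyocyte-like cells, with 3 higher and 5 lower, 0 by 2-fold either way, with a median of -0.07, and 1 higher and 7 lower once the Nppa and Mb cluster was left out. Without that cluster, 27.3% of all genes were higher, with a median of -0.36. Of all genes in the whole class of cardiomyocyte-like cells, 33.4% were higher, 4.22% at least 2-fold higher and 15.8% at least 2-fold lower. Actr10 and Actr1a, subunits of the dynactin complex, had 43.7 and 61.3 CPM and 45.9 and 44.0 CPM there, Actr3b 88.9 and 56.4 CPM, and Actr8, of a chromatin remodelling complex, 30.01 and 17.8 CPM. In fibroblast-like cells 8 were measured, 5 higher and 3 lower, 0 at least 2-fold higher and 1 at least 2-fold lower, with a median of 0.04, against 6.59% and 11.3% of all genes by 2-fold. Of all genes in that class, 42.6% were higher. The lowest there was Actr3b with 13.1 and 4.52 CPM and the highest Actr6 with 10.2 and 12.8 CPM, and Actr1a, Actr10 and Actl6a had log2 ratios of 0.07, 0.17 and 0.01. In smooth muscle-like cells 2 were measured, Actr1a and Actr10, and both were higher with 1 against 26 and 1 against 19 UMIs, from intervals that hold 0; their median was 1.40.

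The genes whose levels were most like those of each actin differed between the members. Over 18 points (9 classes in each library) and 10969 genes, the Pearson correlation of log2 levels with 20 CPM added was highest for Acta1 with Nppa (0.97), Nppb (0.89) and Myl4 (0.87), and for Actc1 with Myl3 (0.99), Fabp3 (0.99) and Ryr2 (0.98). Acta2 ran with Fn1 (0.80), Cdk4 (0.76) and Ctps (0.75), and Actg2 with Nox4 (0.83), Apod (0.80) and Ccn5 (0.76). Actb ran with Ap2s1 (0.92), Hnrnpk (0.89) and Map4k4 (0.89), and Actg1 with Prdx1 (0.84), Gpx4 (0.82) and Cish (0.80). Points of 1 library share its depth and its background RNA, and smooth muscle-like cells are not among them.

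With classes of at least 20 cells, which adds smooth muscle-like cells and gives 24 points over 12 classes, the closest genes of the smooth muscle actins changed. Acta2 ran with Myl9 (0.96), Tagln (0.94) and Myh11 (0.93), and Actg2 with Myh11 (0.91), Acta2 (0.90) and Myl9 (0.90). For Acta1, Nppa remained the closest at 0.89. This cell minimum was chosen after seeing the data.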

How the data were processed

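The deposited values are whole-number counts of UMIs per gene and barcode, in 1 matrix per library. The submitters' processing notes name Cell Ranger and Seurat as the authors' tools and mm10 as their build; tool versions are not given in the sources used here. A 10x 3' kit is named in the labels' protocols, but the deposited barcodes have a different form, so the kit is unclear. Whether whole cells or nuclei were used is not stated. Dividing by exonic length suits reads spread along a transcript and not reads from its 3' end, which is why both scales are printed.

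Barcodes with at least 200 genes and at most 50% mitochondrial UMIs were kept. Scrublet (scanpy 1.11.5) called 0 doublets at its automatic threshold, so the 8% of cells with the highest scores were removed per library (1283 and 808), without showing that these were doublets. Clustering joined both libraries with no integration step. It used 2000 variable genes per library (in at least 20 cells), other than the 6 actins and genes that are sex-linked, mitochondrial, ribosomal or for haemoglobin. Counts were scaled to 10000 per cell, log transformed and brought to unit variance (at most 10), and Leiden clusters (leidenalg 0.10.2, resolution 1) were made from 15 neighbours in 30 principal components. The unit variance step was added after seeing that smooth muscle cells merged with pericytes without it.

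Of 22 clusters, 3 stayed unnamed. Names came from 19 marker lists without the actins. A name needed at least 3 markers 2-fold above the other cells (20 CPM added) and in 5% of cells, with a mean log2 fold of at least 0.5; these thresholds were set after seeing the data. UMIs were summed per class and library, and CPM are per 1000000 nuclear-encoded UMIs. Ratios add 0.5 UMI to each sum. Intervals are exact and 95%: Poisson for levels, Clopper-Pearson for shares and conditional binomial for ratios. Only the ratio intervals were tried on simulated data. Those counts were Poisson draws, which the intervals assume, so the trial says nothing of spread between cells or animals. A gene entered the counts of 2-fold differences with at least 100 UMIs in a library, and a list member was measured with at least 20 over both libraries. A count of 0 was compared with 3 counts of the total.

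The named genes are the 6 members, the 3 genes most like each, and of each list the 3 with the most UMIs and those with the highest and lowest ratio. Actn2 and Flnc, and the genes that lead clusters, were named after their values were seen. Of the genes this rule names, 1 is not reported here. Members and lists were chosen with earlier results of these data known. Alternatives were other cell filters, no removal by doublet score, Leiden resolution 2, thinning to 500 UMIs, TMM factors (edgeR 4.0.16) and median-of-ratios scaling, means over cells, division by exonic length, actins kept in clustering, and leaving out cells with atrial genes, the cluster rich in mitochondrial RNA or shared barcodes. The last 2, the lists without that cluster and the 20-cell minimum for likeness were added after seeing the data.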

Additional observations from a re-analysis of the deposited data

How the results depend on the processing

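Log2 ratios whose interval excludes 0 kept their direction over the settings run, except for Actc1 and Actb in cardiomyocyte-like cells as given here. Ratios whose interval holds 0 changed sign more often: over their alternatives, Actb in smooth muscle-like cells ran from -0.29 to 0.61, Acta1 there from -0.028 to 3.06, and Actg2 in cardiomyocyte-like cells from -1.51 to 1.44. In cardiomyocyte-like cells the log2 ratio of Acta1 was 4.10 with median-of-ratios scaling, 4.15 with TMM factors, 4.33 as a mean over cells, 4.36 after thinning, 3.68 at 10% mitochondrial UMIs at most and 3.41 without that cluster. That of Actc1 was 0.96, 1.01, 0.98 and 0.93 in the first 4 of these settings, 0.88 with at least 500 genes per cell, 0.63 without cells that hold atrial genes and 0.14 at 10% mitochondrial UMIs at most. It reversed to -0.24 without the cluster, where the level of the WT-labelled library was at its B-like background. Actb reversed to -0.028 at 10% mitochondrial UMIs at most and to -0.12 without the cluster, and both intervals hold 0. TMM and median-of-ratios scaling each shift every ratio of a class by the same amount, here up by more than 0.1 in cardiomyocyte-like cells. They therefore cannot change the order of the actins by ratio. The cause of the moves in the other settings was not tested.

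The Acta1 share of actin UMIs in cardiomyocyte-like cells of the WT-labelled library was 2.91% per exonic length, 1.43% at 10% mitochondrial UMIs at most and 1.40% without the cluster. In the other library it was 21.6% both per exonic length and after thinning, 21.3% without cells that hold atrial genes, 12.9% at 10% mitochondrial UMIs at most and 11.8% without the cluster. In fibroblast-like cells at resolution 2, the Acta2 log2 ratio was 1.44 and its share in the p53KO-labelled library 1.76%. In smooth muscle-like cells the Acta2 share was 52.4% in the WT-labelled library at 10% mitochondrial UMIs at most, and 32.1% in the other after thinning. The smooth muscle-like Acta2 ratio lay between -1.90 and -0.96 over its 10 alternatives, and the upper value, at 10% mitochondrial UMIs at most, is short of 2-fold.

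At least 2-fold higher and lower were 198 and 862 genes in cardiomyocyte-like cells, 459 and 508 in fibroblast-like cells and 79 and 14 in smooth muscle-like cells. With at least 20 UMIs these were 437 and 2099, 850 and 1351, and 657 and 247. At 4-fold they were 44 and 114, 124 and 104, and 31 and 2. Of the 98 alternative values of the results that answer a comparison, 60 stayed within their counting error or within 1.5 times a count, 37 moved and 1 reversed. Of 418 others, 333 stayed, 83 moved and 2 reversed. No paired analysis was possible because each group has 1 library. Depth limits Actg2 most, with 14 UMIs in the WT-labelled library, and the smooth muscle-like and immune classes. Animals, sex, genotype and library preparation cannot be told apart.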

Other observations

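The 3 unnamed clusters were outside the comparisons. The cluster led by Mki67 and Top2a, genes of dividing cells, held 31 cells in each library. Its Actb level was 421 CPM (230 to 707) in the WT-labelled library and 1188 CPM (949 to 1469) in the other, and its Acta2 counts were 0 and 9 UMIs. The cluster led by Adam8 and Cd300lf held 7 and 378 cells, and in the p53KO-labelled library it had 1216 CPM (1133 to 1303) of Actb and 868 CPM (798 to 942) of Actg1. Both Actb levels in that library were above the 796 CPM of macrophage-like cells. The cluster led by Chl1 and Gpc5 held 2 and 322 cells and had 209 CPM (157 to 272) of Actb and 592 CPM (503 to 693) of Actc1.

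Between the members, levels of Acta1 and Actc1 were hardly related over the 24 points of 12 classes and 2 libraries, with a Pearson correlation of -0.08, whereas Acta2 and Actg2 had 0.90. Points of 1 library share its depth and background RNA, and the second value rests on smooth muscle-like cells, in which both genes are highest.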
